A study of Mus musculus with 6 samples.

Results

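Genes of the G2 phase and of mitosis were examined in endothelial cells (EC), the cells that line blood vessels, from the lungs of infant and young adult mice. The members were 47 gene symbols picked for their role in cell division, and each was represented by its row in the deposited expression table, or by the row with the highest mean over the 6 libraries where a symbol had several. A row was found for 46 of them among 12623 genes, and Nek2, a kinase of the centrosome, was not analysed here. Expression is given as RPKM, the reads of a transcript per kilobase of its length, scaled to the mapped reads of the library, so that levels of different genes can be set side by side.

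RNA-seq was performed on 3 infant and 3 young adult libraries, all from untreated C57BL/6N mice without a transgene in the labels. The cells were released from lung tissue with collagenase and sorted as living cells positive for CD31 and CD34 and negative for PTPRC, LYVE1, LY76 and PDPN, a gate set against leukocytes, lymphatic EC and red cells, whose transcripts were nevertheless measured in the libraries and are given at the end. The study's methods describe female mice, with infants in their second week after birth, and do not say whether a library came from 1 animal or from several. The comparison addressed which genes change as lung EC pass from growth to quiescence, a state in which vessels are kept up without cell division.

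Before a cell divides it must load CDK1 with cyclins, condense its chromosomes, build a spindle, attach every chromosome to it and then degrade the cyclins again. The genes for these steps are transcribed together late in the cycle. In resting cells their promoters are held silent by the DREAM complex, and in dividing cells B-MYB and FOXM1 activate them, in part through a short element called the cell cycle genes homology region (CHR) and through CCAAT boxes bound by NF-Y. Growing vessels of the newborn lung are known for many dividing EC, and adult lung vessels for few.

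The number of reads per library is unknown, because only RPKM rounded to 1 decimal were analysed, and the rounding limits the precision of low values. Between 10693 and 11860 genes reached 1 RPKM per library. All 16 endothelial markers examined were at 1 RPKM or more in all 6 libraries, and their RPKM summed to 3803 to 5544 in infant and 5886 to 6438 in young adult libraries. Infant replicate 2 stood apart: across genes its log2(RPKM + 1) had a correlation of 0.963 with infant replicate 1 and of 0.963 with young adult replicate 3, while infant replicates 1 and 3 correlated at 0.987. The infant libraries held transcripts of the Y-linked gene Ddx3y at 20.6, 16.5 and 21.9 RPKM beside Xist, whereas Ddx3y was listed at 0 in all 3 young adult libraries. Age and the sex of the animals behind the libraries therefore cannot be told apart here. Counts over the members are given with and without infant replicate 2.

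Of the 46 members, 32 were lower in young adult EC, 0 were higher and 14 did not pass the test. The test was limma on log2(RPKM + 1) over 12458 genes, with a call at a Benjamini-Hochberg adjusted p under 0.05 and a change beyond the fold threshold of the study, 0.81 on the log2 scale, and it called 8.10% of all genes lower and 3.33% higher. Quantile normalization moved that split of all genes from 1009 lower and 415 higher to 611 lower and 532 higher, and left 13 members called lower. At an unadjusted p under 0.05, 40 members were lower and 1 was higher. Counts at an unadjusted p, here and below, have no share of all genes beside them. At an adjusted p under 0.05 with no fold threshold, 35 members were lower and 1 was higher, beside 2023 and 1155 of all genes. The median difference of the members was -1.13 on the log2(RPKM + 1) scale, against -0.07 for all genes tested. In 37 members every young adult library was below every infant library, and in 1 member, Lbr, every young adult library was above. Such a separation was seen in 27.1% and 16.4% of all genes, respectively.

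All 46 members passed the filter on low values, which asked for 1 RPKM in at least 1 library, but 32 of them were under 1 RPKM in every young adult library and so passed through the infant libraries. At these low levels the pseudocount of 1 understates the ratio. The 32 genes called lower differed by -0.90 to -2.42 on the log2(RPKM + 1) scale, with adjusted p from 0.0102 to 0.0440 (limma). Replacing the pseudocount by 5 left 3 of them called, and replacing it by 0.1 gave 37. Of all genes, 338 and 1425 were then called lower, against 1009 with a pseudocount of 1. In these bulk libraries fewer dividing cells and less mitotic RNA per cell cannot be told apart.

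**Figure D1:**
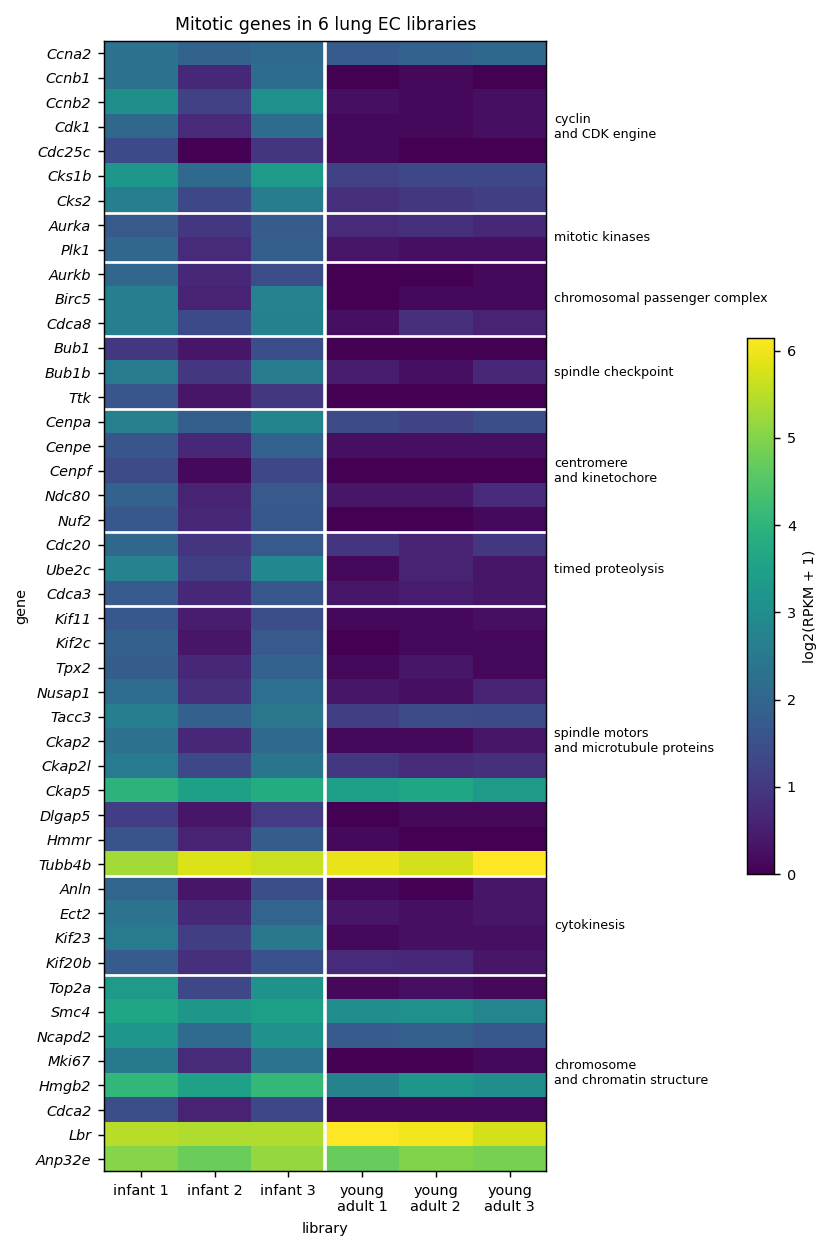
Each cell gives the log2(RPKM + 1) of a gene (vertical axis, ordered by role) in a library (horizontal axis), with lighter colours for higher levels. Most genes were at intermediate levels in infants 1 and 3, low in infant 2 and near 0 in the young adult libraries, while Lbr, Tubb4b and Anp32e were high in all 6.

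The number of calls rested strongly on single libraries. The median member was at 3.95, 0.75 and 3.40 RPKM in infants 1, 2 and 3, and at no more than 0.30 RPKM in any adult library. Infant replicate 2 thus lay between its own group and the adults, and was the lowest infant library for 44 of 46 members. Without infant replicate 2, limma called 40 members lower, beside 10.5% of all genes. The 32 calls made with all libraries were among these 40, and the 8 added were Anln, Aurka, Cdc20, Cdc25c, Cenpf, Dlgap5, Kif20b and Ndc80. Leaving out another library had the opposite effect: 4 members were called when infant 1 was dropped, 4 when infant 3 was dropped, and 2, 5 and 8 when young adult 1, 2 or 3 was dropped. With these libraries dropped in turn, 617, 619, 515, 548 and 837 of all genes were called lower, against 1009 with all libraries. Cks1b and Kif23 were called in all 6 of these fits. No member changed its sign in any of them, and the median difference ran from -0.95 to -1.54.

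Summed over the 32 genes called lower, the infants held 145.6, 43.8 and 140.8 RPKM and the young adults 17.2, 21.6 and 20.9 RPKM. The ratio of the means was 5.53. Over the 14 genes not called the sums were 161.9, 148.2 and 166.2 RPKM in the infants against 176.3, 170.1 and 172.3 RPKM in the young adults. Most of the RPKM of the whole set therefore belonged to genes that were not called: Lbr, Tubb4b and Anp32e together made up 78.0% of it in young adult and 47.2% in infant libraries. The sum over all 46 genes was 269 ± 66.5 RPKM in infant and 193 ± 0.964 RPKM in young adult libraries (SD, n = 3), and infant replicate 2, at 192.0 RPKM, did not stand above the adults in it.

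**Figure D2:**
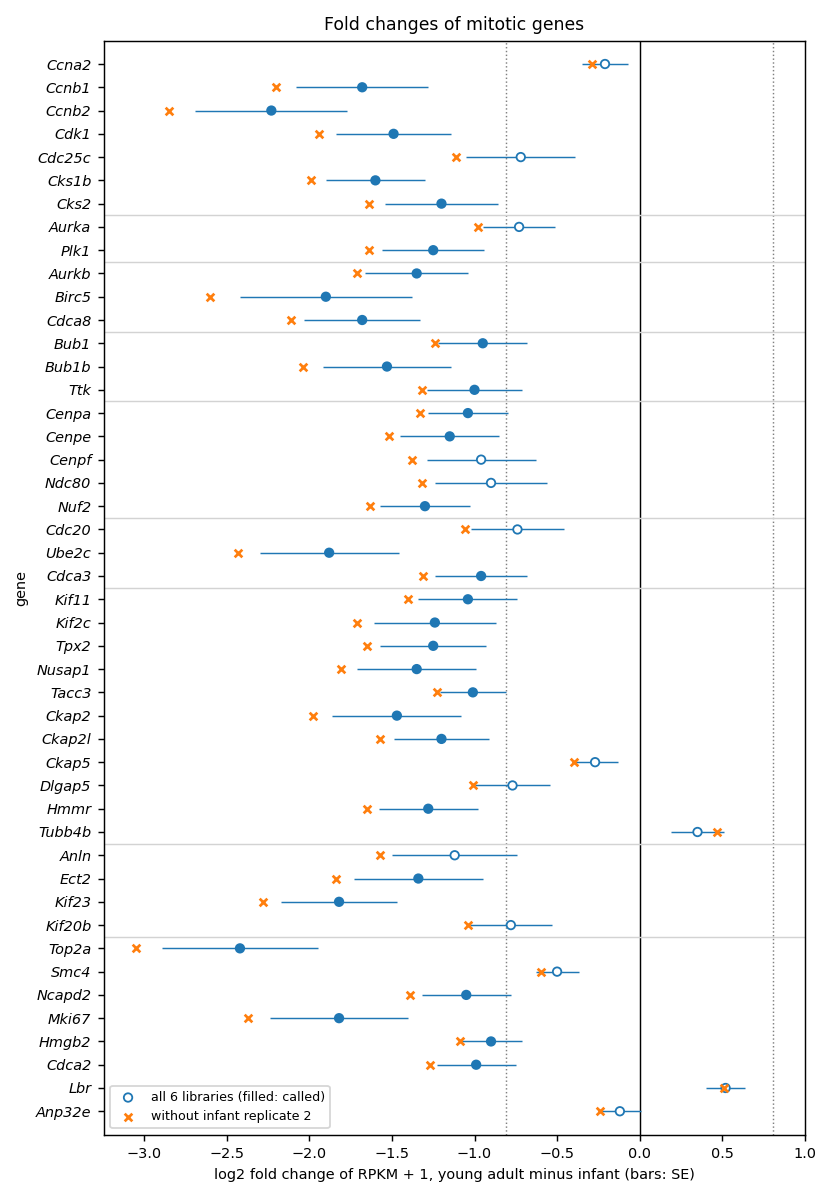
Circles give the log2 fold change of RPKM + 1 of each gene (vertical axis, ordered by role), young adult minus infant, with standard errors as bars and filled where called, and crosses the same without infant replicate 2. Dotted lines mark the fold threshold, 0.81 on this scale, and only Lbr and Tubb4b lie to the right of 0.

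The cyclin and CDK engine had 5 of 7 genes called lower. Ccnb2, a B-type cyclin that activates CDK1, was at 7.3, 1.3 and 7.5 RPKM in the infants against 0.2, 0.1 and 0.2 RPKM in the young adults, a difference of -2.23 ± 0.46 (log2(RPKM + 1), SE, adjusted p = 0.0145, limma). The groups did not overlap, with infant 2 nearest to the adults. Ccnb1, the main mitotic cyclin, was at 4.0, 0.6 and 3.5 against 0.0, 0.1 and 0.0 RPKM, and its kinase partner Cdk1 at 3.2, 0.7 and 3.5 against 0.1, 0.1 and 0.2 RPKM. Both were called lower. Cks1b, a small protein that docks CDKs onto their substrates, was at 8.3, 3.3 and 9.1 RPKM in the infants against 1.3, 1.5 and 1.5 RPKM in the young adults, and its infant mean was 4.81 times the young adult mean (adjusted p = 0.0102, limma). Its relative Cks2 was also called lower, with a ratio of 3.97.

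Ccna2, the cyclin that works from S phase to early mitosis, did not pass the test. It was at 4.0, 2.9 and 3.3 RPKM in the infants against 2.4, 2.8 and 3.2 RPKM in the young adults, so that the groups overlapped (difference -0.21 ± 0.14, adjusted p = 0.284, limma). Ccna2 shares 510 exon bases, or 12.5% of its exon sequence, with Exosc9, a subunit of the RNA exosome on the opposite strand, which was at 17.2 to 20.3 RPKM in the infants against 21.7 to 24.4 RPKM in the young adults. The kit used, SMARTer Ultra Low, does not mark strand, so reads of the shared bases cannot be told apart, and their part in the Ccna2 value was not tested. Cdc25c, the phosphatase that switches CDK1 on, was at 1.6, 0.0 and 0.9 RPKM against 0.1, 0.0 and 0.0 RPKM and was not called (adjusted p = 0.139, limma). It was listed at 0 in infant 2.

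Among the mitotic kinases, Plk1, which acts from centrosome maturation to cytokinesis, was called lower, at 3.1, 0.7 and 2.6 against 0.3, 0.2 and 0.2 RPKM. Aurka, the kinase of the spindle poles, was at 2.3, 1.0 and 2.4 against 0.7, 0.8 and 0.6 RPKM. It had an adjusted p of 0.0425 (limma) but a difference of -0.73 ± 0.22 on the log2(RPKM + 1) scale, which is below the fold threshold. In RPKM without the pseudocount its infant mean was 2.71 times its young adult mean. Its groups did not overlap.

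All 3 members of the chromosomal passenger complex, which detaches wrongly held chromosomes from the spindle, were called lower. Incenp, a subunit outside the members, was at 1.8, 0.9 and 1.2 against 0.4, 0.6 and 0.5 RPKM and was not called. Its groups did not overlap, but its difference of -0.60 ± 0.17 was under the fold threshold (adjusted p = 0.0415, limma). The ratio of its means, without the pseudocount, was 2.6. Birc5, which encodes survivin, was at 5.3, 0.5 and 5.6 RPKM in the infants against 0.0, 0.1 and 0.1 RPKM in the young adults, a difference of -1.90 ± 0.52 (adjusted p = 0.0343, limma). Infant 2 was nearer to the adults than to the other infants. A further Birc5 transcript row, not used in the test, was at 1.7, 0.1 and 1.7 against 0.0 RPKM in all young adult libraries. Cdca8, which encodes borealin, was at 5.3, 1.6 and 5.5 against 0.2, 0.8 and 0.5 RPKM, and the kinase gene Aurkb at 3.1, 0.6 and 1.8 against 0.0, 0.0 and 0.1 RPKM.

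The 3 genes of the spindle checkpoint, which delays chromosome separation until every kinetochore is attached, were likewise called lower. Bub1b, the checkpoint inhibitor of the anaphase-promoting complex, was at 4.7, 1.0 and 4.7 RPKM in the infants against 0.4, 0.2 and 0.6 RPKM in the young adults (difference -1.53 ± 0.39, adjusted p = 0.0268, limma). The kinase genes Ttk, at 2.1, 0.3 and 1.0 RPKM, and Bub1, at 1.0, 0.3 and 1.8 RPKM in infant EC, were listed at 0 in all 3 young adult libraries. With Cenpf they were the 3 members for which this was so, and no fold change is given for them.

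At the centromere and kinetochore, where chromosomes meet spindle microtubules, 3 of 5 genes were called lower. Cenpa, the histone variant that marks the centromere, kept the highest level of these in young adult EC, at 1.7, 1.4 and 1.8 RPKM against 5.4, 2.6 and 5.8 RPKM in infant EC, a ratio of 2.82 (adjusted p = 0.0192, limma). Nuf2 and Ndc80 encode subunits of the same microtubule-binding complex. Nuf2 was called, at 2.2, 0.6 and 2.2 against 0.0, 0.0 and 0.1 RPKM, and Ndc80 was not, at 2.8, 0.5 and 2.3 against 0.3, 0.3 and 0.7 RPKM, where infant 2 fell within the adult range (adjusted p = 0.0859, limma). Whether these changes differ from each other was not tested. Cenpe, a kinetochore motor, was called lower, and the large kinetochore protein gene Cenpf, at 1.7, 0.1 and 1.5 RPKM in infant EC, was not.

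Timed proteolysis had 2 of 3 genes called lower. Ube2c, the ubiquitin-conjugating enzyme of the anaphase-promoting complex, was at 5.6, 1.2 and 6.3 RPKM in the infants against 0.1, 0.5 and 0.3 RPKM in the young adults (difference -1.88 ± 0.42, adjusted p = 0.0187, limma). Its exons overlap those of Tnnc2, on the other strand, over 22.8% of their length, and Tnnc2 was at 0.5, 2.3 and 0.3 against 0.1 RPKM in each adult library. The part of those reads in the Ube2c value was not tested. Cdc20, the activator of that complex, was at 3.2, 0.9 and 2.3 against 0.9, 0.5 and 1.0 RPKM and was not called (adjusted p = 0.0937, limma). It shares 53 exon bases with Elovl1, which was at 79.7 to 139.7 RPKM. Cdca3, whose product helps cells enter mitosis, was called lower at 2.4, 0.6 and 2.2 against 0.3, 0.4 and 0.3 RPKM.

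Of 11 genes for spindle motors and microtubule proteins, 8 were called lower, and the others included the most abundant. Ckap2, a protein of spindle microtubules, had the largest difference among them, at 3.9, 0.6 and 3.3 against 0.1, 0.1 and 0.3 RPKM (-1.47 ± 0.39, adjusted p = 0.0307, limma). The others called were Kif11, the motor that pushes spindle poles apart, Kif2c, which shortens microtubules, Tpx2, which nucleates them, Nusap1, Hmmr, Ckap2l and Tacc3. These 7 were at 2.0 to 5.3 RPKM in infant replicates 1 and 3 apart from Kif11 in replicate 3, at 1.8 RPKM. Dlgap5, a spindle protein, had an adjusted p of 0.0419 (limma) but a difference of -0.77, under the fold threshold.

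Ckap5 and Tubb4b were abundant in both groups. Ckap5 encodes a microtubule polymerase and was at 14.7, 10.3 and 12.8 RPKM in the infants against 10.1, 11.3 and 9.2 RPKM in the young adults, with overlap (adjusted p = 0.186, limma). Its partner on the spindle, Tacc3, was called lower, at 5.3, 2.7 and 4.4 against 1.2, 1.7 and 1.6 RPKM, and shares 8.14% of its exon bases with Tmem129 on the other strand. Tubb4b, a beta tubulin of the general cytoskeleton, was at 38.3, 55.3 and 49.0 RPKM in the infants against 60.0, 52.4 and 69.7 RPKM in the young adults (difference 0.35 ± 0.16, adjusted p = 0.146, limma). Infant 2 was the highest infant library for Tubb4b and overlapped the adults.

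In the cytokinesis group 2 of 4 genes were called lower. Kif23, the motor subunit of centralspindlin in the middle of the late spindle, was at 4.8, 1.2 and 4.5 RPKM in the infants against 0.1, 0.2 and 0.2 RPKM in the young adults (difference -1.82 ± 0.35, adjusted p = 0.0111, limma). Ect2, which activates RhoA where the cell will be cut, was at 4.1, 0.6 and 3.0 against 0.3, 0.2 and 0.3 RPKM. Anln, a scaffold of the contractile ring, was at 3.0, 0.3 and 1.8 against 0.1, 0.0 and 0.3 RPKM, with infant 2 level with the highest adult. It was not called (adjusted p = 0.0643, limma), and neither was the kinesin gene Kif20b, at 2.4, 0.8 and 1.9 against 0.7, 0.6 and 0.3 RPKM.

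Chromosome and chromatin structure held the member with the largest change and the 2 members with the highest levels in this group. Top2a (chr11:98992947-99024199, GRCm38.p6), the topoisomerase that untangles sister chromatids, was at 8.9, 1.5 and 7.9 RPKM in the infants against 0.1, 0.2 and 0.1 RPKM in the young adults, a difference of -2.42 ± 0.47 (adjusted p = 0.0121, limma). Mki67, which coats mitotic chromosomes and is the usual stain for dividing cells, was at 4.6, 0.7 and 4.1 against 0.0, 0.0 and 0.1 RPKM and was called lower. In both genes infant 2 was nearer to the adults than to the other infants. Cdca2, which guides a phosphatase to chromatin at mitotic exit, was called lower at 1.8, 0.5 and 1.5 against 0.1 RPKM in each adult library.

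The condensin subunits Ncapd2 and Smc4 both stayed above 2 RPKM in the adult. Ncapd2 was at 8.3, 3.4 and 7.7 against 2.4, 2.7 and 2.2 RPKM and was called lower, with a ratio of 2.66. Smc4 was at 11.3, 8.6 and 10.3 against 7.0, 7.5 and 5.9 RPKM. Its groups did not overlap and its adjusted p was 0.0275 (limma), but the ratio of 1.48 was under the threshold. Hmgb2, a DNA-bending chromatin protein, was at 15.8, 10.5 and 16.1 against 5.7, 8.4 and 7.0 RPKM and was called lower with a ratio of 2.01.

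Lbr (chr1:181815315-181842401), the lamin B receptor, ties chromatin to the inner nuclear membrane and also acts in sterol synthesis. It was at 44.0, 41.5 and 41.5 RPKM in the infants against 68.7, 63.4 and 52.7 RPKM in the young adults, the only member with every adult library above every infant library. The difference was 0.52 ± 0.12 (adjusted p = 0.0190, limma), under the fold threshold, and it was 0.51 without infant replicate 2. Anp32e, a chaperone that removes the histone variant H2A.Z, was at 31.4, 25.7 and 35.1 against 25.3, 30.4 and 28.6 RPKM with overlap (adjusted p = 0.548, limma).

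Promoters were looked at because so many members moved together. RefSeq promoters on GRCm38.p6, from 250 bases before to 50 bases after the transcript start, were found for 39 of the 46 members in 40 windows, and not for Aurkb, Ccna2, Cdc25c, Cdca2, Dlgap5, Smc4 and Tpx2. The CHR core TTTGAA stood on either strand in 80.0% of the members' windows, against 17.9% of all 32851 windows and 12.0% of the windows of genes tested. CCAAT stood on either strand in 80.0% against 37.4% of all windows, at least 2 copies of it in 65.0% against 11.7%, and both motifs in 70.0% against 6.95%. The motifs can share at most 1 base with each other. Since the members were picked for their part in mitosis, these shares describe the list and are not a test.

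Called members and members not called both carried the motifs. TTTGAA was in 73.3% of the 30 windows of genes called lower and in all 10 windows of genes not called, and both motifs together in 70.0% of each. 150 bases before the start are shown for 4 genes called lower that carry both motifs (Cdk1, Cks1b, Top2a and Ube2c) and, as examples of genes not called, for Ckap5 and Lbr. Capitals mark TTTGAA or its reverse complement TTCAAA, and CCAAT or its reverse complement ATTGG. Sequences are from RefSeq on GRCm38.p6, read 5′ to 3′ on the strand of the gene.
Cdk1, chr10:69352913-69353062, minus strand: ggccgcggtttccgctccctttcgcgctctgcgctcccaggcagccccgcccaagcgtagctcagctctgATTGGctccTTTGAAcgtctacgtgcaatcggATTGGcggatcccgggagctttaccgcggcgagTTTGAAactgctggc
Cks1b, chr3:89418292-89418441, minus strand: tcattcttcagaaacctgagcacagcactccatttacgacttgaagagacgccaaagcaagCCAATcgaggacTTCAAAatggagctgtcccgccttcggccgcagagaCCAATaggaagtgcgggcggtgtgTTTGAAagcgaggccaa
Top2a, chr11:99024190-99024339, minus strand: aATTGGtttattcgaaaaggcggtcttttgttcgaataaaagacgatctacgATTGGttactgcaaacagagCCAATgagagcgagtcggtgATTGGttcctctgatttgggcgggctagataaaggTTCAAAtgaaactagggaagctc
Ube2c, chr2:164769779-164769928, plus strand: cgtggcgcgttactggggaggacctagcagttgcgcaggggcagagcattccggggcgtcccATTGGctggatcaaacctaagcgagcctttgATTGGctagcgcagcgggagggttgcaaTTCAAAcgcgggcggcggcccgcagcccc
Ckap5, chr2:91526612-91526761, plus strand: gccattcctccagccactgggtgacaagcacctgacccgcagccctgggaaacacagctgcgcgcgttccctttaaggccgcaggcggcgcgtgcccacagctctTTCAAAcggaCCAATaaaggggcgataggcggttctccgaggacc
Lbr, chr1:181842402-181842551, minus strand: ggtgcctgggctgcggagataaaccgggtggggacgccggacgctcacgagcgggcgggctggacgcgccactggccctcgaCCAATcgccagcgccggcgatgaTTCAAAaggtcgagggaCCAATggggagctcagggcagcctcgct

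In Cdk1, Cks1b, Top2a and Ube2c a CHR core lies 15 to 29 bases before the start, at -15, -17, -23 and -29, with CCAAT or ATTGG upstream of it. Ckap5 and Lbr have the core at -45 and a CCAAT on its downstream side, and Lbr has another upstream at -68. These arrangements do not divide called from uncalled members: Cdc20, not called, has a core at -18 with a CCAAT upstream at -53, and Ckap2, called lower, has a core at -101 with a CCAAT box downstream at -20. A CHR core was not found among these letters in the windows of Birc5, Bub1, Ccnb1, Cenpe, Cks2, Nuf2, Nusap1 and Tacc3, all of them called lower. A match is a description of the sequence and does not show that a factor binds there.

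**Figure D3:**
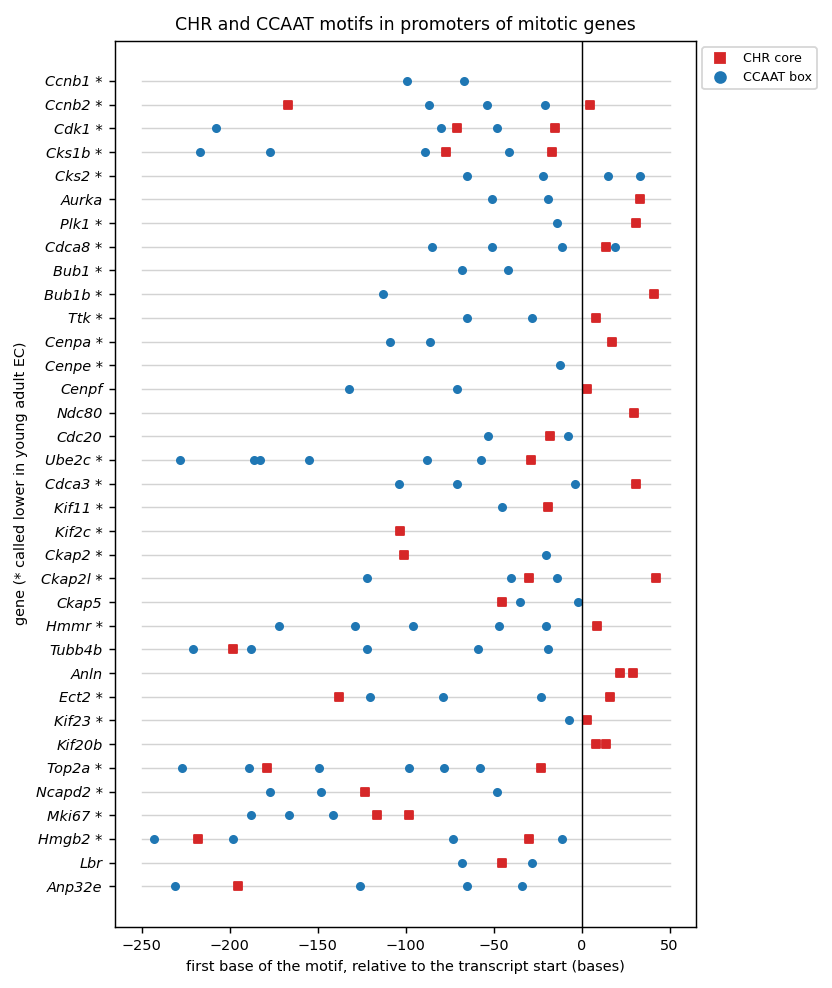
Squares (CHR core) and circles (CCAAT box, either strand) give the first base of each motif relative to the transcript start (horizontal axis, bases) for the 35 genes with at least 1 motif, 1 window a gene. Both called genes (asterisk) and genes not called carry the motifs.

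Other mitotic genes, taken from a list of 84 symbols of which 63 had a row, included 18 that were called lower and 0 called higher, with a median difference of -0.61. At an unadjusted p under 0.05 (limma), 43 were lower and 2 higher. With no fold threshold, 28 were called lower, beside 2023 of all genes. The 18 included the spindle and cytokinesis genes Kif20a, Kif22, Prc1, Racgap1, Spag5, Fam83d and Shcbp1. The kinetochore and centromere genes Spc24, Spc25, Cenpk and Cenpq were among them too, as were Pbk, Fam64a, Depdc1a, Fbxo5, Ncapg and Ccnf. Prc1, which bundles microtubules between separating chromosomes, was at 9.9, 0.9 and 8.0 RPKM in the infants against 0.1, 0.3 and 0.4 RPKM in the young adults (difference -2.18 ± 0.59, adjusted p = 0.0328, limma). Without infant replicate 2, 29 were called, and leaving out another library left between 1 and 5.

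The most abundant of these genes were not called. Pttg1, or securin, which keeps sister chromatids together until anaphase, was at 61.9, 100.1 and 71.0 RPKM in the infants against 122.5, 123.1 and 128.6 RPKM in the young adults, all adults above all infants (difference 0.71 ± 0.17, adjusted p = 0.0245, limma), but under the fold threshold. The checkpoint gene Bub3 was at 31.9, 39.6 and 38.0 against 45.0, 47.3 and 48.0 RPKM, also under that threshold. Stmn1, a regulator of microtubule turnover, was at 87.4, 86.2 and 98.1 against 94.0, 82.8 and 91.1 RPKM with overlap. The condensin gene Ncaph2 was at 28.7, 28.4 and 25.8 against 28.9, 36.9 and 32.8 RPKM, where the groups did not overlap but the highest infant and the lowest adult lay close together (adjusted p = 0.159, limma).

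Of 14 genes for the transcription factors of the cycle and the DREAM complex, E2f2 alone was called lower, at 1.9, 1.0 and 2.2 against 0.1, 0.2 and 0.6 RPKM. Foxm1 and Mybl2 were not analysed here. E2f4, the E2F of the DREAM complex, was at 7.9, 10.0 and 8.7 against 13.3, 12.8 and 11.9 RPKM and Rb1 at 4.1, 6.0 and 4.8 against 7.6, 7.2 and 6.9 RPKM, both under the fold threshold. The adult libraries were above all infant libraries in both. Rbbp4, Lin37 and the remaining genes of the list were not called.

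Among 11 CDK inhibitors and antiproliferative genes 3 were called lower. Cdkn2c, an inhibitor of CDK4 and CDK6, was low in infant 2 as the mitotic genes were, at 18.5, 3.7 and 20.9 RPKM in the infants against 2.2, 2.9 and 2.9 RPKM in the young adults (difference -1.79 ± 0.53, adjusted p = 0.0423, limma). Cdkn1c and Ccng2 were the other 2. Cdkn1a, the p21 inhibitor of CDKs, was at 24.7, 85.5 and 23.6 RPKM against 76.2, 136.5 and 92.0 RPKM, but infant 2 lay within the adult range and the gene was not called (difference 1.39 ± 0.47, adjusted p = 0.0653, limma). Of 7 G1 cyclins and kinases, Ccnd2 was called lower, at 29.0, 15.5 and 30.5 against 10.7, 9.9 and 14.0 RPKM, while Cdk4 stayed at 57.9 to 66.2 against 50.5 to 59.2 RPKM.

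DNA replication genes, which act a phase earlier, had 4 of 26 called lower (Rrm2, Tk1, Gins2 and Uhrf1) and a median difference of -0.22. Rrm2, the regulated subunit that makes deoxyribonucleotides, was at 10.4, 3.8 and 9.0 RPKM in the infants against 0.4, 0.7 and 0.9 RPKM in the young adults, a ratio of 11.6 (adjusted p = 0.00336, limma), whereas Pcna was at 22.8, 29.8 and 31.8 against 26.0, 26.6 and 30.2 RPKM.

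The infant libraries differed among themselves in the mitotic genes. The RPKM of infant replicate 2 divided by the mean of infant replicates 1 and 3 had a median of 0.245 over the 46 members (quartiles 0.194 and 0.378), against 0.992 over all genes. Infant replicate 3 divided by infant replicate 1 had a median of 0.917 over the members. For Tubb4b alone infant 2 was the highest infant library, and for Lbr it equalled infant 3. The same ratio for infant replicate 2 was 0.545 for further mitotic genes, 0.703 for DNA replication genes and 1.31 for endothelial markers.

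Most markers of fibroblasts, mural cells and red cells were also lower in young adult libraries and in infant replicate 2. Of 11 fibroblast markers 10 were called lower in young adult libraries, with a summed RPKM of 347.1 to 1312 in infant and 11.7 to 27.2 in young adult libraries, and none of the 11 was listed at 0 in any library. Infant replicate 2 had 0.477 of the level of the other infants at their median, but Dcn and Lum were highest there, at ratios of 2.55 and 3.27. Of 14 mural markers 12 were called lower, with sums of 196.8 to 392.0 against 95.2 to 107.1 RPKM and a ratio of 0.499 in infant 2, and Cspg4 was listed at 0 in young adult replicate 1. Most of the young adult mural sum was Mcam, at 55.1, 73.5 and 63.9 against 91.2, 75.4 and 72.8 RPKM. Mcam was not called (difference 0.31). Of 9 red cell markers 8 were called lower, with sums of 9659 to 79870 against 823.4 to 1352 RPKM and a ratio of 0.231 in infant 2. Infant 3 divided by infant 1 had a median of 2.29 over these markers, against 0.917 over the mitotic members.

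Globin transcripts made up 11.0% of gene RPKM in infant 1 and 23.5% in infant 3 against 3.41% in infant 2 and 0.307% to 0.487% in young adult libraries. The median mitotic member was at 3.95, 3.40 and 0.75 RPKM in infants 1, 3 and 2. Leukocyte markers (5 of 14 called lower) summed to 338.8 to 539.6 against 142.7 to 569.0 RPKM, and epithelial markers (4 called lower and 1 higher of 11) to 6491 to 11350 against 1835 to 8371 RPKM. The median ratio of infant 2 was 0.635 for leukocyte, 1.13 for epithelial and 2.54 for platelet markers, of which 0 of 4 were called. These medians cover markers with a mean of at least 1 RPKM in infants 1 and 3. Lymphatic endothelial markers (1 of 4 called higher) summed to 89.0 to 192.7 against 268.5 to 411.3 RPKM, and nearly all of this was Lyve1, at 68.6, 171.4 and 82.7 against 396.4, 307.9 and 252.9 RPKM. The other 3, Pdpn, Flt4 and Ccl21a, were not called, with differences of -0.56, -0.30 and -0.27. The part of these other cells in the mitotic signal was not tested.

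**Figure D4:**
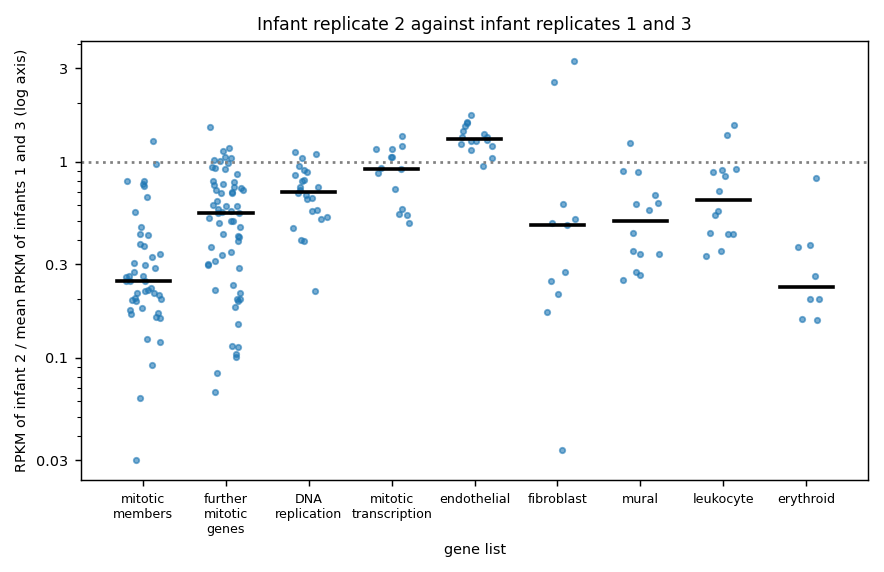
Each point is a gene with a mean of at least 1 RPKM in infants 1 and 3, and the vertical log axis gives its RPKM in infant 2 divided by that mean, by gene list (horizontal axis), with black bars for medians and 1 ratio under 0.03 drawn at 0.03. The medians are 0.245 for mitotic members, 0.231 for red cell markers, 0.477 for fibroblast markers, 0.499 for mural markers and 1.31 for endothelial markers.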

How the data were processed

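RNA-seq of sorted lung EC was analysed in 3 infant and 3 young adult libraries, grouped by their titles. The authors amplified RNA with the SMARTer Ultra Low kit, aligned reads to mm10 with STAR, tested genes with DESeq2 and deposited RPKM per RefSeq transcript, rounded to 1 decimal. Depth is unknown, and a p-value covers the spread between these libraries, described by the study as independent biological replicates. From the RPKM, limma 3.58.1 (R 4.3.3, intensity trend) was fitted to log2(RPKM + 1) over 12458 genes with at least 1 RPKM in at least 1 library, with Benjamini-Hochberg adjustment. A call needed an adjusted p under 0.05 and a change of over 1.75-fold in RPKM + 1. Ratios of means are given where the young adult mean was at least 0.5 RPKM. The fit was tested on simulated data. Symbols of 24 rows that had become dates were restored.

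Members and lists were chosen with earlier results of these data known. Values in all libraries were given, per role group, for the 2 members with the highest mean RPKM, the member with the largest difference, members without separation at 5 RPKM or more in young adults, and further members beside them. Of further lists, called genes, apart from 1 not reported here, and up to 4 abundant others were named. Exon overlaps came from GENCODE M21. Alternatives were other pseudocounts, filters, scalings, variance models, thresholds, transcript rows, a replicate block and leaving out each library.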

Additional observations from a re-analysis of the deposited data

How the results depend on the processing

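No member changed the sign of its difference under any alternative in which it was tested. With a pseudocount of 5, 3 members, 0 further mitotic genes and 338 of all genes were called lower and 240 higher, and the members' median difference was -0.41. At an unadjusted p under 0.05, 42 further mitotic genes were then lower. A pseudocount of 0.1 gave a median of -2.51, with 37 members, 27 further mitotic genes and 1425 of all genes called lower. Quantile normalization left 13 members, 2 further mitotic genes and 611 of all genes lower, and moved the median of all genes from -0.07 to 0.04 and that of the members to -0.84. limma's treat, which tests for a change beyond the fold threshold, called 0 members (10 at an unadjusted p under 0.05), 0 further mitotic genes (3 at an unadjusted p under 0.05), 124 of all genes lower and 52 higher. With no fold threshold 35 members were called lower and 1 (Lbr) higher, 28 further mitotic genes lower, and 2023 of all genes lower and 1155 higher. The filter on the mean RPKM tested 34 members and left 11 further mitotic genes.

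Leaving out 1 library gave 2 to 40 members lower, 1 to 29 further mitotic genes lower and 515 to 1309 of all genes lower. The replicate block kept 28 members called, with 4 of the 32 lost. Deviations of same-numbered libraries from their group means correlated at 0.03, -0.11 and -0.02, so no strong shared deviation was seen. These values cannot show whether same-numbered libraries were processed together. Of the 32 called members, other scalings by median, upper quartile or without globin genes lost 0, and robust eBayes lost 3. The unknown depth, the rounding to 0.1 RPKM and 3 libraries a group limit what values under 1 RPKM can show.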
